A study of Homo sapiens with 16 samples.

Results

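Replication-independent histone variants are histones made outside the burst of canonical histone synthesis in S phase, from ordinary spliced or single-exon genes. The 9 genes described here are *H2AZ1* and *H2AZ2*, *H2AX*, *H3-3A* and *H3-3B*, *MACROH2A1* and *MACROH2A2*, *H1-10* and *CENPA*. They were chosen by name and not by a rule on their measured levels, but with earlier results of these data known. All 9 had a row among the 33937 genes counted, and all 9 passed the filter on low counts in every comparison. RNA came from HCT116, an established human colorectal carcinoma line, engineered with a scrambled hairpin (SCR) or with a hairpin against *NAA40* (NAA40-KD), each under a promoter that doxycycline (dox) switches on. The 16 libraries fall into 4 groups of 4 by their labels: NAA40-KD (+dox) and SCR (+dox) had 1 μg/ml of dox for 96 h, whereas NAA40-KD (-dox) and SCR (-dox) had none. One stable NAA40-KD line is named for the sequencing and nothing says whether it is a clone, so that hairpin and line cannot be told apart, and every group shares the HCT116 background. The methods call the 4 RNA samples of a condition independent, but nothing says that they came from separate cultures, and the p-values measure only the spread between these samples, which may be technical.

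NAA40 is an N-terminal acetyltransferase whose known substrates are the canonical histones H2A and H4. Variant histones replace their canonical counterparts at chosen places and times: H2A.Z marks promoters and enhancers, H3.3 is laid down at transcribed and at repetitive DNA through separate chaperones, H2AX is phosphorylated around DNA breaks, macroH2A carries a large extra domain and is abundant on silent chromatin, H1-10 binds linker DNA, and CENP-A defines the centromere. Most of these proteins are made outside S phase, and most of their transcripts, though not all, are polyadenylated, unlike those of most canonical histone genes. The RNAs of *H2AX* and *CENPA* still vary through the cell cycle.

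*NAA40* itself goes against the labels. Its level in CPM, a count scaled to library size after TMM normalization, was 34.7, 25.9, 29.1 and 28.7 in the 4 libraries labelled SCR (-dox), and 26.2, 28.3, 26.3 and 28.2 in SCR (+dox). It was 12.5, 11.5, 9.32 and 13.4 in NAA40-KD (-dox), whereas NAA40-KD (+dox) libraries had 31.6, 29.3, 28.7 and 31.8. The group without dox, by its label, thus held *NAA40* at 39.4% of its SCR group, and the treated one at 111% (exact two-sided permutation p = 0.0286 for each, the smallest that 70 arrangements allow). In the quasi-likelihood test used below, the former difference passed (log2 fold change -1.31, adjusted p = 0.00521). The latter did not (0.15, adjusted p = 0.281). All directions below are therefore those between libraries labelled X, and none is assigned to the hairpin or to dox.

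Promoter sequences of 7 of the genes are shown, because several of these genes were lower together in the libraries in which *NAA40* was low. *MACROH2A2* and *H1-10* were added because they hold no CCAAT, so their lack of it was fixed by the choice. Genes picked in this way cannot show a link between the motif and the levels. Each run is the 250 bases before the RefSeq start on GRCh38.p14, 5′ to 3′ on the gene's strand, with matches in capitals to TTTCCCGC, to CCAAT or, on the other strand, to ATTGG, to TTTGAA or its complement on the other strand, and to TATAAA.
H2AZ1, chr4:99950276-99950525, minus strand: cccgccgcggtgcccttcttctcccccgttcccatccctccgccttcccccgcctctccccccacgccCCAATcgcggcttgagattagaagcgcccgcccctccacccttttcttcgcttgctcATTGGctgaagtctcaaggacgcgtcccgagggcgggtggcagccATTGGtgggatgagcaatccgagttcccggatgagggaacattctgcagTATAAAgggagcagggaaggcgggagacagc
H2AZ2, chr7:44848088-44848337, minus strand: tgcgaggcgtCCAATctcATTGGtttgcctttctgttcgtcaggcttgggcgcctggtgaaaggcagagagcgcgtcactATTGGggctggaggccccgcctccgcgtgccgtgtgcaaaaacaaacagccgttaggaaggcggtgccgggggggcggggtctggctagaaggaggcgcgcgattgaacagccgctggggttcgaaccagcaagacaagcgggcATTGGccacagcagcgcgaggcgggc
H2AX, chr11:119095466-119095715, minus strand: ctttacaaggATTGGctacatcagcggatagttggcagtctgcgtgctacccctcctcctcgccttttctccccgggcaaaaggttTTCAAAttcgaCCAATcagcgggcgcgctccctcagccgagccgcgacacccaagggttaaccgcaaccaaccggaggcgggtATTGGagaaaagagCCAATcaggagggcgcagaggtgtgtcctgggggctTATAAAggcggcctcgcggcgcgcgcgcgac
H3-3B, chr17:75779780-75780029, minus strand: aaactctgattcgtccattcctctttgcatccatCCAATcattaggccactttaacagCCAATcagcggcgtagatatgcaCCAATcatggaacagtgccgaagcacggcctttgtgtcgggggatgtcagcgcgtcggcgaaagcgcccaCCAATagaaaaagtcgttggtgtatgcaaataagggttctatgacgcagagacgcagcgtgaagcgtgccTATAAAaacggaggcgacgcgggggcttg
CENPA, chr2:26785806-26786055, plus strand: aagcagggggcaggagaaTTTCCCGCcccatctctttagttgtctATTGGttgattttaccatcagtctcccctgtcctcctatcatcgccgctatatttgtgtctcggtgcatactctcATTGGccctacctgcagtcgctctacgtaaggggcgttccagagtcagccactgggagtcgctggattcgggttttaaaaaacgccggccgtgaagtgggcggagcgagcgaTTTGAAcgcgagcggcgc
MACROH2A2, chr10:70052596-70052845, plus strand: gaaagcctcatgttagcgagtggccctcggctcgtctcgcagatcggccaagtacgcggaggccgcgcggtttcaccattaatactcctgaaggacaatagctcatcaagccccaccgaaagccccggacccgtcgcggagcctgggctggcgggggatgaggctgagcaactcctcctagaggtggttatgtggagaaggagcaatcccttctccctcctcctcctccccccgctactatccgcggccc
H1-10, chr3:129316287-129316536, minus strand: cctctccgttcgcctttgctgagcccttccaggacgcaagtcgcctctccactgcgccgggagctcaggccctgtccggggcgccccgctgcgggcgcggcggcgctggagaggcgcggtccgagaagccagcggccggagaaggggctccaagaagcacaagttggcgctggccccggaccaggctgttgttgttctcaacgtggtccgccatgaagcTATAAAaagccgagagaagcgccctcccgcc

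Letters of the CCAAT box, which NF-Y binds in many promoters, occurred 4 times each before *H2AZ2*, *H2AX* and *H3-3B*, 3 times before *H2AZ1* and 2 times before *CENPA*, counting both strands. With 50 bases after the start included, 9 of the 13 RefSeq start windows of the 9 genes held at least 1 such match, against 34.6% of 35116 human promoters of the same 300 bases. *H3-3A*, which was not lower, held a match in 3 of its 4 windows, *MACROH2A1* in 1 of its 2, and *MACROH2A2* and *H1-10* in none. Windows of the same gene are not separate units, and some of those of *H3-3A* overlap, so the count over windows is not one over genes. A TATAAA stood at position -31 of *H2AZ1*, *H2AX* and *H1-10* and at -29 of *H3-3B*, and was found in 11.5% of all promoters. *CENPA* alone of the printed genes had TTTCCCGC, one of 4 E2F-type octamers searched (3.31% of promoters hold any of TTTCCCGC, TTTCGCGC, TTTGCCGC or TTTGGCGC), at -232, with TTTGAA at -18 (15.2% of promoters), the core of an element of cell cycle promoters. TTTGAA also stood at -164 of *H2AX* and, beyond the printed stretch, at 4 bases after the start of *H2AZ1*. These matches are letters in a window, not sites of binding, and the libraries hold no measurement of binding.

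Of the 16 libraries, NAA40-KD (-dox) replicate 4 stood apart, and values that rest on it are given with and without it. Its root-mean-square log2 distance from the median of its group was 0.93 over 14376 genes, against 0.24 to 0.37 for the other 15 libraries, and 5.03% of its counts were mitochondrial, against 6.42 to 14.3% elsewhere. Relative to the other 3 libraries of its group, the 1435 genes of lowest GC content had a median log2 difference of -1.42 and the 1435 of highest GC content one of 1.23. *H2AX* (66.4% GC, log2 difference 1.51) and *H1-10* (68.6% GC, 1.27) were both in the latter bin, while *H3-3A* (40.5% GC) was 0.59 lower on the log2 scale. Total counts ran from 11065606 to 13855486 per library. Epithelial markers were present in all libraries (EPCAM at 249 to 398 CPM and CDH1 at 121 to 176 CPM), and of the intestinal markers CDX2 was at 16.7 to 30.4 CPM, whereas VIL1 and CDX1 did not exceed 0.27 CPM. Over all 8 epithelial markers the summed level was 5099 to 10727 CPM in the NAA40-KD (-dox) libraries (up to 6079 without replicate 4) and 3818 to 5525 CPM in the others. Of 8 markers of blood, endothelial and stromal cells, COL1A1 was the one above 3 CPM (57.7 to 189), the immune markers PTPRC, CD3E and CD68 stayed under 0.29 CPM, and the summed level was 69.4 to 192.5 CPM in NAA40-KD (-dox) (up to 82.4 without replicate 4) and 59.4 to 95.3 CPM elsewhere. The part of these differences in the results was not tested.

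**Figure D1:**
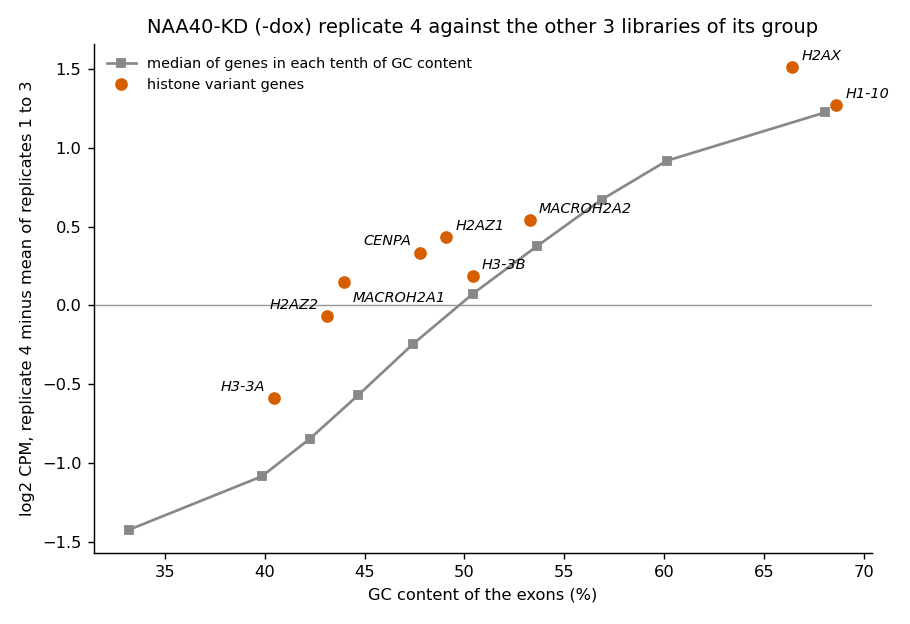
Log2 difference between NAA40-KD (-dox) replicate 4 and the mean of the other 3 libraries of its group against GC content in percent. GC content is that of the exons of the longest transcript of each gene. The line gives medians over 10 equal bins of the genes with CPM above 1 in at least 4 libraries. Labelled points are the histone variant genes. The medians climb from -1.42 to 1.23, and *H2AX* and *H1-10* lie at the upper right.

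The genes lie on 9 different chromosomes (GENCODE 29 on GRCh38). *H2AZ1* is at chr4:99948086-99950388 and *H2AZ2* at chr7:44826791-44848083, *H2AX* at chr11:119093854-119095467, *H3-3A* at chr1:226061851-226072001, *H3-3B* at chr17:75776434-75785893, *MACROH2A1* at chr5:135333900-135399914, *MACROH2A2* at chr10:70052796-70112280, *H1-10* at chr3:129314771-129316277 and *CENPA* at chr2:26764289-26801067. *H2AX* and *H1-10* have 1 exon each, and the principal transcripts of the others have 3 to 9. Reads of some of them cannot be placed with certainty. *H3-3A* shared 28.8% of its 50-base stretches with 12 processed pseudogenes, of which H3P16 had 79 to 353 counts and H3P6 48 to 129, more than the 20 to 77 counts of *H3-3A* itself, so that its values are uncertain. *H2AZ2* shared 14.8% with the pseudogene H2AZ2P1 (0 to 1 counts) and *H3-3B* shared 8.28% with H3-5 (0 to 8 counts), whereas *MACROH2A2* and *CENPA* shared none. *MACROH2A1* shared 23.2% with antisense genes, of which PITX1-AS1 had 6 to 27 counts. *H1-10* shared 17.2% with the antisense gene H1-10-AS1 (0 to 10 counts). Overlapping genes with sizeable counts were UNK (467 to 1012) and AIFM2 (294 to 592), on the strand opposite *H3-3B* and *MACROH2A2*, and SLC35F6 (653 to 1071), on the strand of *CENPA*. None of these shared a 50-base stretch with the principal transcript of the gene it overlaps. Whether counting used strand is not given in the sources used here.

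Levels of the 9 genes spanned more than 2 orders of magnitude, a span that rests on *H3-3A*, whose values are uncertain. Without it, the means per kilobase of exon in SCR (-dox) ran from 9.30 to 113 CPM per kb. Per kilobase of exon, *H3-3B* led in the SCR (-dox) libraries with a mean of 113 CPM per kb, followed by *H2AZ1* at 89.5 and *H2AX* at 75.4. Neighbours among these 3 overlapped across libraries. A second tier held *H1-10* (25.4), *H2AZ2* (24.9) and *MACROH2A2* (23.7), again overlapping, above *MACROH2A1* (12.6), *CENPA* (9.30) and *H3-3A* (0.81), which were separated from each other. In NAA40-KD (-dox), *H3-3B* (79.3), *H2AZ1* (50.6) and *H2AX* (34.8 CPM per kb) kept the first ranks, and *H2AZ2* (15.6) moved below *MACROH2A2* (22.2). Without replicate 4 these were 76.7, 46.6, 23.8, 15.8 and 19.96 CPM per kb, in the same order, with *H1-10* at 20.8. The order depends on the length used: per kilobase of the principal transcript, *H2AZ2* reached 157 and *MACROH2A1* 80.3 CPM per kb in SCR (-dox), both above *H2AX* at 75.4.

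**Figure D2:**
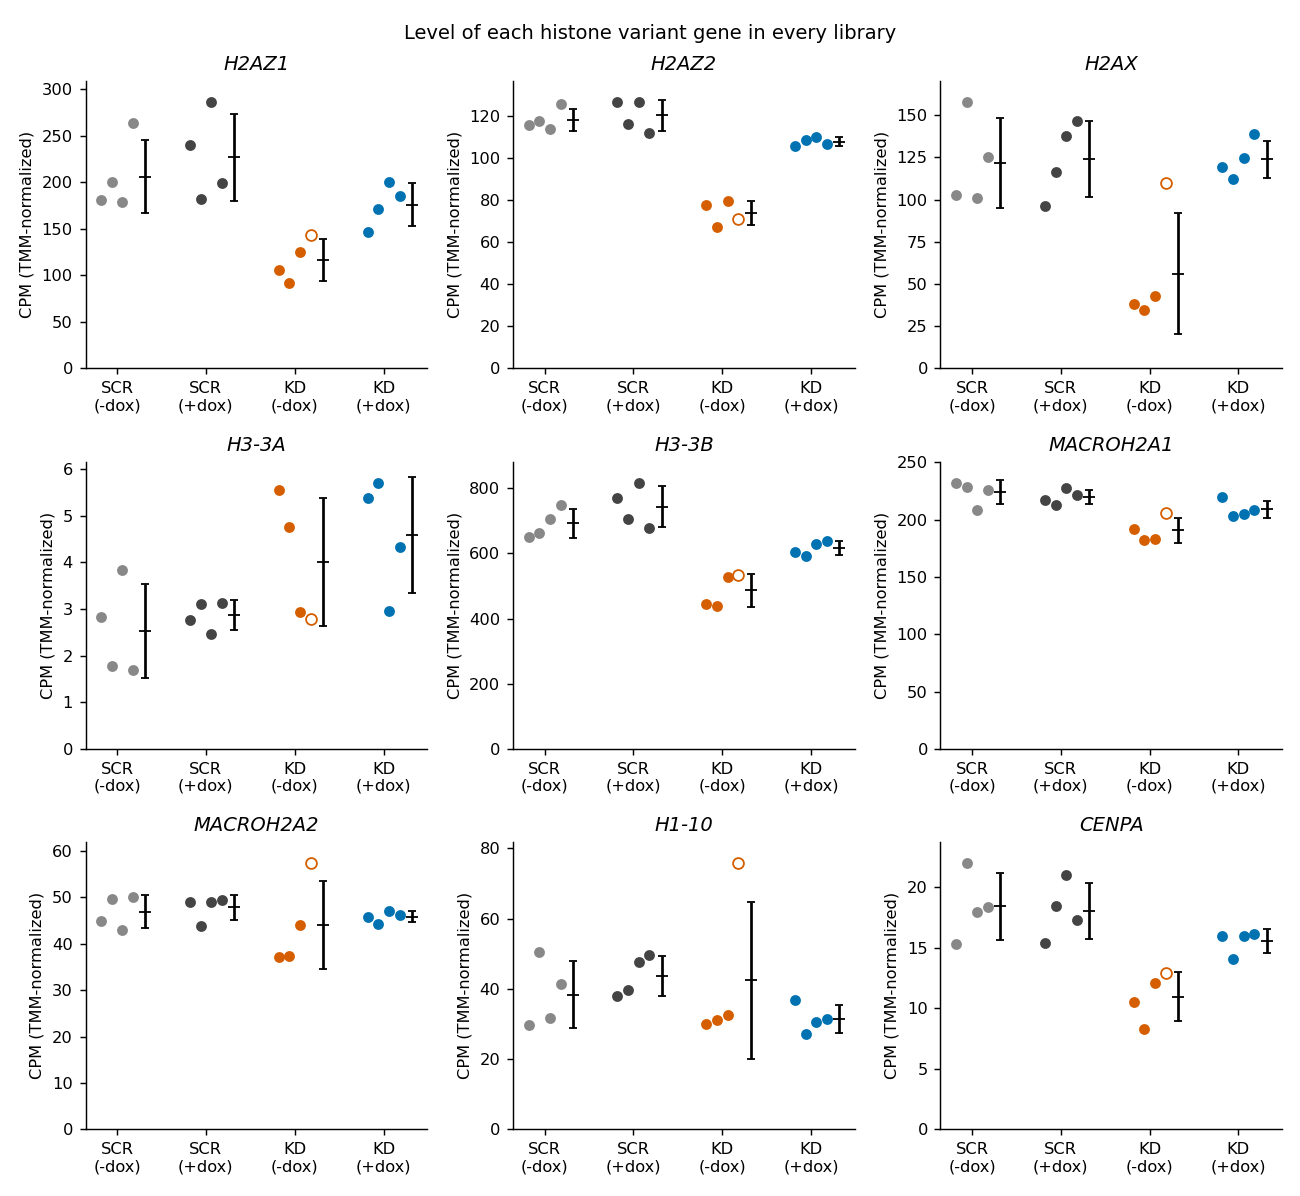
Level of each histone variant gene in CPM, on linear axes that start at 0 and are scaled to each gene, in the 16 libraries, by group. Points are libraries, the hollow point is NAA40-KD (-dox) replicate 4, and black marks are means with SD over 4 libraries. *H2AZ1*, *H2AZ2*, *H3-3B* and *CENPA* lie lower in all 4 NAA40-KD (-dox) libraries than in any library of another group, and the hollow point sits far above the others for *H2AX* and *H1-10*.

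No difference was detected between SCR (+dox) and SCR (-dox) for these genes. None of the 9 passed an adjusted p of 0.05 in the quasi-likelihood test of edgeR, adjusted by Benjamini-Hochberg over all genes, and none passed unadjusted. The lowest unadjusted p, that of *H1-10*, was 0.199. Log2 differences were between -0.02 and 0.20, and the libraries of both groups overlapped for all 9. Among all 13882 genes tested, 0 were called (0.0%), with 271 at an unadjusted p under 0.05, and DESeq2 and limma-voom also called 0, with 255 and 287 genes at that unadjusted level.

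Between NAA40-KD (-dox), the libraries in which *NAA40* was low, and SCR (-dox), 2 of the 9 variant genes passed the test. Both were H2A.Z genes, each lower, and 5 of the 9 genes (*H2AZ1*, *H2AZ2*, *H3-3B*, *MACROH2A1* and *CENPA*) were lower in each of the 4 libraries than in each SCR (-dox) library. In the background, 6.42% of 13903 genes were called (3.54% lower) and 12.6% were lower without overlap. Without replicate 4 of NAA40-KD (-dox), 7 of 9 were called, 6 lower and *H3-3A* higher, where the background was 36.5% of genes (19.4% lower, 17.1% higher). An offset fitted per library to GC content, which keeps all libraries, gave 6 of 9 (background 36.0%). Leaving out any 1 of the other 7 libraries gave 0 of 9. The share of all genes called in those fits is not given here, so the loss cannot be read as particular to these genes. Under the study's own rule, which also asks for an absolute log2 fold change above 1, 0 of 9 were differentially expressed (background 3.47%), and *H2AX* was the 1 that became so without replicate 4 (4.27%). In bulk RNA, fewer cells in a phase that makes a transcript and less of that transcript per cell cannot be told apart.

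NAA40-KD (+dox), where *NAA40* was not lower, also differed from SCR (+dox). *H1-10*, *H2AZ1* and *H3-3B* were lower and *H3-3A* was higher, 4 of 9 against 24.5% of 13869 genes (13.7% lower, 10.9% higher). Groups did not overlap for *H2AZ2*, *H3-3B* and *H1-10*, each lower in NAA40-KD (+dox), and 13.5% of all genes were lower in that way. The fold rule gave 0 of 9 (background 2.15%). In the fit over all 16 libraries, which shares 1 estimate of spread with NAA40-KD (-dox) replicate 4, 0 of 9 were called. The share of all genes called in that fit is not given here.

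Within the NAA40-KD line, the (+dox) libraries were compared with the same NAA40-KD (-dox) libraries as above, so the result is not independent of that comparison. *H2AZ2* was called, higher in (+dox), 1 of 9 where 10.2% of 13844 genes were (4.71% higher). *H2AZ1*, *H2AZ2*, *H2AX*, *H3-3B* and *CENPA* were higher in every (+dox) library than in any (-dox) library (background 16.1%). Leaving out replicate 4 of NAA40-KD (-dox) raised the count to 7 of 9, all higher (background 52.4%, 25.8% higher).

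**Figure D3:**
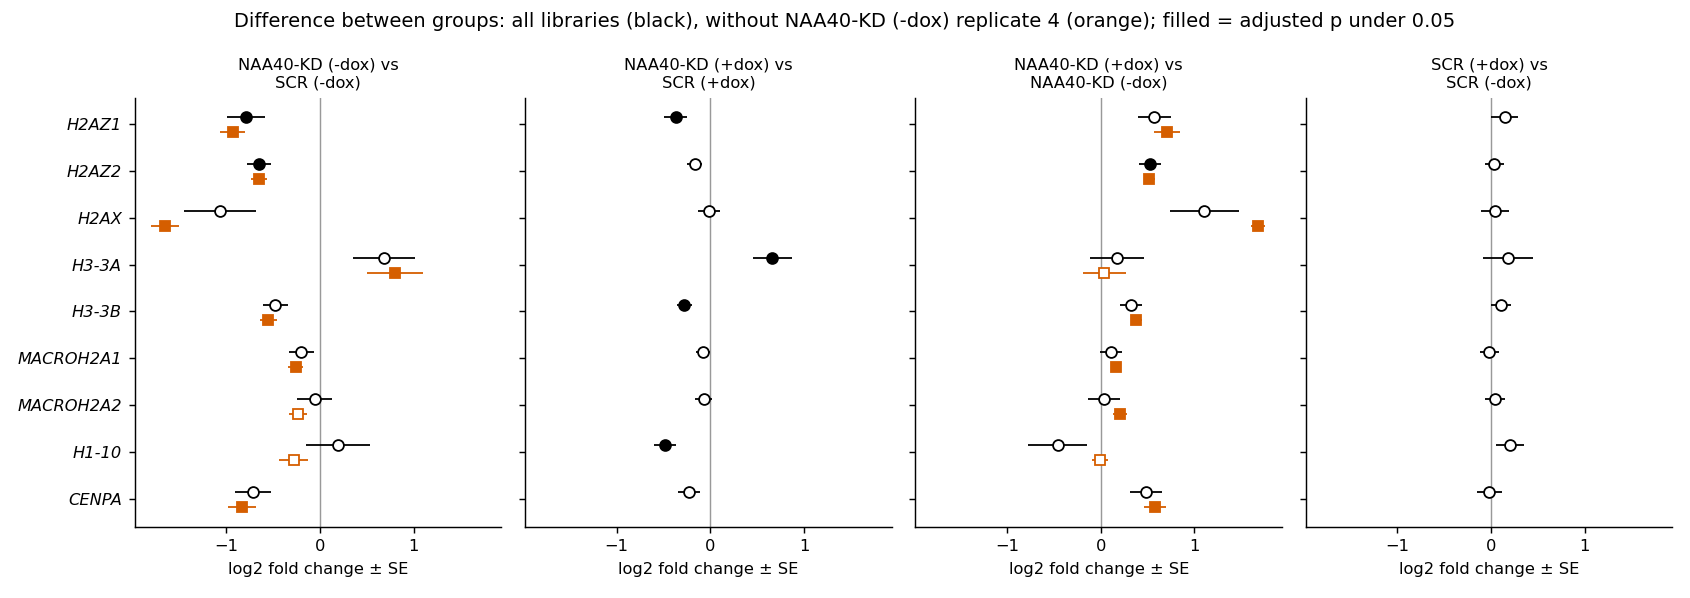
Log2 fold changes of the 9 genes with their standard errors in each comparison. Black circles are from all libraries and orange squares from the fit without NAA40-KD (-dox) replicate 4, and filled symbols have an adjusted p under 0.05. *H2AX* shifts from -1.06 to -1.65 in NAA40-KD (-dox) against SCR (-dox) when the library is left out.

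*H2AZ1* and *H2AZ2* encode the near-identical H2A.Z.1 and H2A.Z.2, exchanged into nucleosomes by the SRCAP and p400 complexes. *H2AZ1* was at 181, 201, 179 and 263 CPM in SCR (-dox), 240.2, 182, 286 and 199 in SCR (+dox), 105, 91.6, 125 and 144 in NAA40-KD (-dox), and 146, 172, 201 and 186 in NAA40-KD (+dox). The NAA40-KD (-dox) libraries all lay under both SCR groups and, by a narrow margin, under NAA40-KD (+dox), which itself overlapped SCR. Its level in NAA40-KD (-dox) was 58.0% of that in SCR (-dox) (log2 fold change -0.79 ± 0.20, SE; adjusted p = 0.0482). Without replicate 4 this was -0.93 ± 0.13 (adjusted p = 0.000137), and without any 1 of the other 7 libraries the adjusted p was 0.0969 to 0.151. In NAA40-KD (+dox) *H2AZ1* was at 77.4% of SCR (+dox) (-0.37 ± 0.12, adjusted p = 0.0355), a call lost without SCR (+dox) replicate 1 or 3 or NAA40-KD (+dox) replicate 1, 2 or 4 (adjusted p 0.0638 to 0.139). Between NAA40-KD (+dox) and (-dox) the log2 difference of 0.57 ± 0.18 did not pass (adjusted p = 0.0744), and it did without replicate 4 (0.71 ± 0.13, adjusted p = 0.0032, within a range of 0.000456 to 0.212 over all alternatives).

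*H2AZ2* varied less between libraries of a group. Its levels were 116, 118, 114 and 126 CPM in SCR (-dox), 127, 116, 127 and 112 in SCR (+dox), 77.7, 67.6, 79.5 and 71.2 in NAA40-KD (-dox), and 106, 109, 110.4 and 107 in NAA40-KD (+dox). The highest NAA40-KD (-dox) library was under the lowest library of every other group. *H2AZ2* fell to 63.9% of SCR (-dox) (log2 fold change -0.65 ± 0.13, adjusted p = 0.0215), and to 63.7% without replicate 4 (-0.65 ± 0.09, adjusted p = 3.93e-05). Leaving out any 1 of the other 7 libraries gave adjusted p values of 0.0536 to 0.0775, at log2 fold changes of -0.67 to -0.60. NAA40-KD (+dox) exceeded NAA40-KD (-dox) by 0.53 ± 0.11 (adjusted p = 0.0209), lost without NAA40-KD (-dox) replicate 1 or 2 or any 1 NAA40-KD (+dox) library (0.0515 to 0.089) and under the GC offset (0.36, adjusted p = 0.062). Against SCR (+dox) its log2 difference was -0.16 ± 0.08 (adjusted p = 0.141), with no overlap between the groups.

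*H2AX*, whose protein ATM, ATR and DNA-PK phosphorylate at breaks, had the lowest level relative to SCR (-dox) among the 9 genes and depended on 1 library. In CPM it was 103, 158, 101 and 125 in SCR (-dox), 96.2, 116, 137 and 146 in SCR (+dox), 38.1, 34.5, 42.7 and 109.6 in NAA40-KD (-dox), and 119, 112, 125 and 139 in NAA40-KD (+dox). Replicates 1 to 3 of NAA40-KD (-dox) were thus far under all 12 other libraries, and replicate 4 was among them (515, 457, 582 and 1376 counts). With all libraries *H2AX* was at 47.9% of SCR (-dox), a log2 fold change of -1.06 ± 0.38 that did not pass (adjusted p = 0.13). Without replicate 4 it was at 31.8% (-1.65 ± 0.15, adjusted p = 2.25e-06), and with all libraries and the GC offset the log2 fold change was -1.45 ± 0.11 (adjusted p = 2.11e-06), in a range of adjusted p from 2.11e-06 to 0.269 over the alternatives. NAA40-KD (+dox) and SCR (+dox) overlapped (-0.01 ± 0.12, adjusted p = 0.951). NAA40-KD (+dox) was above NAA40-KD (-dox) by 1.11 ± 0.37 (adjusted p = 0.0887), or by 1.68 ± 0.08 without replicate 4 (adjusted p = 2.53e-13, with 0.21 the highest among alternatives).

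*H3-3B* and *H3-3A* encode the same H3.3 protein. *H3-3B* was at 651, 664, 705 and 749.8 CPM in SCR (-dox), 770.5, 707, 816 and 677 in SCR (+dox), 445, 439, 528 and 533 in NAA40-KD (-dox), and 605, 592, 629 and 639 in NAA40-KD (+dox). The 4 groups formed a step, with NAA40-KD (-dox) lowest, NAA40-KD (+dox) next and the SCR groups on top, without overlap except between the SCR groups. In NAA40-KD (-dox) it was at 71.9% of SCR (-dox), a difference that missed the threshold with all libraries (-0.48 ± 0.14, adjusted p = 0.0656) and passed without replicate 4 (-0.55 ± 0.09, adjusted p = 0.000299, within 0.000299 to 0.201). NAA40-KD (+dox) was at 82.6% of SCR (+dox) (-0.28 ± 0.08, adjusted p = 0.0216), lost when any 1 NAA40-KD (+dox) library was left out (0.0537 to 0.0847). Between NAA40-KD (+dox) and (-dox) the difference was 0.32 ± 0.12 (adjusted p = 0.112), and 0.38 ± 0.06 without replicate 4 (adjusted p = 5.12e-06, with 0.35 the highest among alternatives).

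*H3-3A* moved the other way, at very low counts. Its levels were 2.82, 1.78, 3.83 and 1.70 CPM in SCR (-dox), 2.77, 3.11, 2.46 and 3.13 in SCR (+dox), 5.55, 4.76, 2.94 and 2.79 in NAA40-KD (-dox), and 5.39, 5.71, 2.96 and 4.32 in NAA40-KD (+dox). Both NAA40-KD groups overlapped their SCR groups. NAA40-KD (+dox) stood at 158% of SCR (+dox) (0.66 ± 0.21, adjusted p = 0.0279), a call lost without SCR (+dox) replicate 1 or 3 or NAA40-KD (+dox) replicate 1 or 2 (0.0556 to 0.112). In NAA40-KD (-dox) the log2 difference was 0.68 ± 0.33 (adjusted p = 0.251), or 0.80 ± 0.30 without replicate 4 (adjusted p = 0.0443, within 0.0354 to 0.491). With 20 to 77 counts and 12 pseudogenes sharing its sequence, these values describe the reads assigned to the row rather than the whole of *H3-3A* RNA.

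*MACROH2A1* and *MACROH2A2*, whose proteins carry a macrodomain fused to an H2A-like fold, were not called in any comparison with all libraries. *MACROH2A1* was at 232, 229, 209 and 226 CPM in SCR (-dox), 217, 213, 227 and 221 in SCR (+dox), 192, 182, 183 and 206 in NAA40-KD (-dox), and 219.6, 203, 205 and 208 in NAA40-KD (+dox). All 4 NAA40-KD (-dox) libraries were under the lowest SCR (-dox) library, but the log2 difference of -0.20 ± 0.13 did not pass (adjusted p = 0.396). Without replicate 4 it did (-0.26 ± 0.08, adjusted p = 0.0197, within 0.0197 to 0.846), to 83.6% of SCR (-dox). *MACROH2A2* ranged from 43.0 to 50.1 CPM in the SCR (-dox) libraries, 43.8 to 49.3 in SCR (+dox) and 44.2 to 47.1 in NAA40-KD (+dox), and was at 37.1, 37.4, 44.0 and 57.3 in NAA40-KD (-dox). Its lowest and its highest library were both in NAA40-KD (-dox), and the mean hardly differed from SCR (-dox) (-0.05 ± 0.19, adjusted p = 0.892; -0.24 ± 0.10 without replicate 4, adjusted p = 0.0663, within 0.0663 to 0.968). Between NAA40-KD (+dox) and SCR (+dox), neither passed (*MACROH2A1* -0.08 ± 0.08, adjusted p = 0.486, and *MACROH2A2* -0.07 ± 0.09, adjusted p = 0.602). Without replicate 4, NAA40-KD (+dox) exceeded NAA40-KD (-dox) by 0.16 ± 0.05 for *MACROH2A1* (adjusted p = 0.00847) and by 0.20 ± 0.07 for *MACROH2A2* (adjusted p = 0.0211), against 0.11 ± 0.11 and 0.03 ± 0.17 with all libraries (adjusted p = 0.561 and 0.918).

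*H1-10* encodes H1X, a divergent somatic linker histone. It was at 29.7, 50.4, 31.8 and 41.3 CPM in SCR (-dox), 37.9, 39.8, 47.6 and 49.5 in SCR (+dox), 30.1, 31.1, 32.7 and 75.7 in NAA40-KD (-dox), and 36.9, 27.3, 30.4 and 31.3 in NAA40-KD (+dox). Every NAA40-KD (+dox) library was under every SCR (+dox) library, and replicate 4 of NAA40-KD (-dox) was the highest of all 16. *H1-10* was at 71.5% of SCR (+dox) in NAA40-KD (+dox) (-0.48 ± 0.12, adjusted p = 0.00568), the 1 call among the 9 genes in this comparison that held whichever of the 8 libraries was left out (log2 fold change -0.56 to -0.41). It was lost in the fit over all 16 libraries (adjusted p = 0.32). In NAA40-KD (-dox) the difference from SCR (-dox) had no stable sign, at 0.19 ± 0.34 with all libraries (adjusted p = 0.773) and -0.28 ± 0.15 without replicate 4 (adjusted p = 0.166).

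*CENPA*, the H3 variant of centromeric nucleosomes, was at 15.3, 22.0, 18.004 and 18.4 CPM in SCR (-dox), 15.4, 18.4, 21.0 and 17.3 in SCR (+dox), 10.5, 8.31, 12.1 and 12.9 in NAA40-KD (-dox), and 15.98, 14.1, 15.96 and 16.2 in NAA40-KD (+dox). The NAA40-KD (-dox) libraries were under all 12 others. At 60.9% of SCR (-dox), the difference missed the threshold with all libraries (-0.72 ± 0.19, adjusted p = 0.0574) and passed without replicate 4 (-0.83 ± 0.15, adjusted p = 0.000559, within 0.000559 to 0.179). In NAA40-KD (+dox) it was at 85.6% of SCR (+dox) (-0.22 ± 0.12, adjusted p = 0.168). NAA40-KD (+dox) was above NAA40-KD (-dox) by 0.48 ± 0.17 (adjusted p = 0.0965), and by 0.58 ± 0.12 without replicate 4 (adjusted p = 0.00024, with 0.226 the highest among alternatives).

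Whether the NAA40-KD difference depended on the dox label was tested by an interaction over all 16 libraries, positive where NAA40-KD against SCR is higher with (+dox) than with (-dox). *H2AZ2* was the 1 of 9 genes called (0.49 ± 0.13, adjusted p = 0.0279; background 9.22% of 14392 genes, 4.31% higher). That call was lost without 1 library in 8 of 16 cases (0.0519 to 0.0644), with the GC offset (0.30, adjusted p = 0.146) and without the filter on low counts (adjusted p = 0.305). *H2AX* had a larger interaction that did not pass (1.07 ± 0.41, adjusted p = 0.117). Without NAA40-KD (-dox) replicate 4, 3 of 9 passed, all higher (background 24.2%, 11.9% higher): *H2AX* (1.63 ± 0.20, adjusted p = 4.66e-06), *H2AZ2* (0.48 ± 0.11, adjusted p = 0.00259) and *CENPA* (0.60 ± 0.19, adjusted p = 0.0256), while *H2AZ1* (0.55 ± 0.20, adjusted p = 0.0508) and *H3-3B* (0.26 ± 0.12, adjusted p = 0.117) did not. For *H1-10*, which differed in the (+dox) comparison, the interaction was -0.66 ± 0.37 (adjusted p = 0.284), or -0.21 ± 0.20 without NAA40-KD (-dox) replicate 4 (adjusted p = 0.473) and -0.30 with the GC offset (adjusted p = 0.154).

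Shares within pairs of paralogs overlapped across all groups for H2A.Z and macroH2A, but not for H3.3. *H2AZ1* made up 63.2 ± 3.12% (SD, n = 4) of the counts of both H2A.Z genes in SCR (-dox), 64.9 ± 3.46% in SCR (+dox), 60.8 ± 4.42% in NAA40-KD (-dox) and 61.8 ± 2.86% in NAA40-KD (+dox). *MACROH2A1* made up 82.7 ± 0.87%, 82.1 ± 0.60%, 81.4 ± 2.51% and 82.0 ± 0.59% of macroH2A counts in the same order. Without replicate 4, the NAA40-KD (-dox) shares were 58.8 ± 2.10% for *H2AZ1* and 82.5 ± 1.64% for *MACROH2A1* (n = 3). *H3-3A* gave 0.37 ± 0.15%, 0.39 ± 0.07%, 0.84 ± 0.36% and 0.74 ± 0.22% of H3.3 counts, and 0.95 ± 0.36% in NAA40-KD (-dox) without replicate 4. All NAA40-KD (+dox) libraries (0.467 to 0.954%) were above all SCR (+dox) libraries (0.30 to 0.46%), whereas NAA40-KD (-dox) (0.520 to 1.23%) overlapped SCR (-dox) (0.227 to 0.541%). That overlap rests on replicate 4: without it NAA40-KD (-dox) ran from 0.553 to 1.23%, narrowly above all SCR (-dox) libraries. Nearly all reads assigned to H3.3 genes came from *H3-3B* in every library. These shares are of counts and not of molecules: per kilobase of exon, *MACROH2A1* would be 34.8% of macroH2A in SCR (-dox), and per kilobase of the principal transcript 77.2%.

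**Figure D4:**
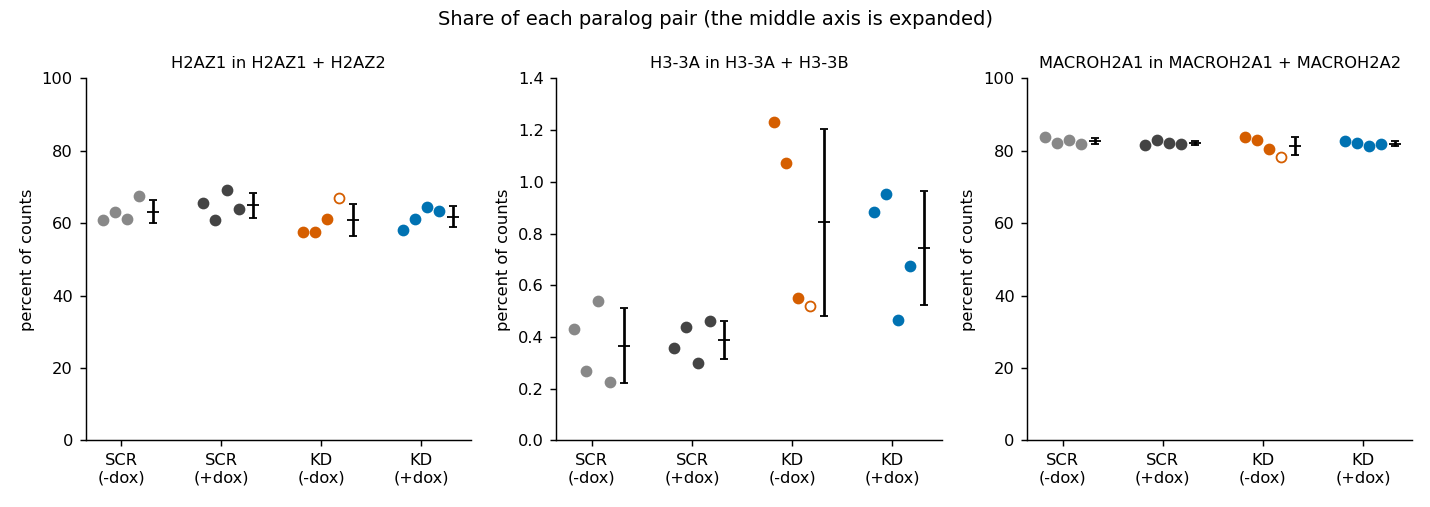
Share of counts, in percent, that fell to *H2AZ1* of both H2A.Z genes, to *H3-3A* of both H3.3 genes and to *MACROH2A1* of both macroH2A genes, by library and group. Points are libraries, the hollow point is NAA40-KD (-dox) replicate 4, and black marks are means with SD. All axes start at 0, the middle one is expanded, and the 4 groups overlap for the first and last pair.

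Genes of the machinery that places and reads the variants were counted in lists put together by hand from textbook knowledge. These lists, and those of cell cycle genes below, were chosen with earlier results of these data known. Their counts beside the share of all genes are therefore a description and not a test. In NAA40-KD (-dox) against SCR (-dox), 4 of 12 H3 chaperone genes were lower and 0 higher (median log2 fold change -0.46, against 0.04 over all genes tested). The called genes were CHAF1B (-1.11, adjusted p = 0.00663) and CHAF1A (-1.04, adjusted p = 0.0205), subunits of the replication-coupled assembly factor CAF-1, NASP (-0.96, adjusted p = 0.00882), which stores soluble H3-H4, and ASF1B (-1.11, adjusted p = 0.0174), which hands H3-H4 on. They belong to assembly of canonical H3 in replication as much as to H3.3. Of 17 genes for CENP-A deposition and the inner kinetochore, 4 were lower and 0 higher (median -0.55), namely HJURP, the CENP-A chaperone (-0.77, adjusted p = 0.0193), and the kinetochore components CENPU (-1.39, adjusted p = 0.0159), CENPI (-1.14, adjusted p = 0.0236) and CENPN (-0.997, adjusted p = 0.0467). H2AX signalling had 4 of 14 lower and 0 higher (median -0.29), with BRCA1 (-1.38, adjusted p = 0.00478), the kinase PRKDC (-0.64, adjusted p = 0.0334), BAZ1B, which phosphorylates a tyrosine of H2AX (-0.70, adjusted p = 0.0344), and MDC1, the reader of phosphorylated H2AX (-0.64, adjusted p = 0.0432). Of 8 linker and nucleosome assembly partners, 1 was lower and 0 higher (median -0.31), the HMG-box gene HMGB2 (-0.61, adjusted p = 0.0394). Of 18 H2A.Z exchange factors, 0 were called (median -0.09), which is near the share over all genes. The share of all genes called was 6.42%.

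Cell cycle genes moved in the same libraries, and their part in the levels of the variants was not tested. Of 15 S phase genes, 9 were lower and 0 higher (median -1.08), with the replicative helicase subunits MCM4 (-1.41, adjusted p = 0.00373) and MCM3 (-1.42, adjusted p = 0.00412), the origin licensing factor CDC6 (-1.10, adjusted p = 0.0051) and the helicase partner GINS2 (-1.36, adjusted p = 0.00532). Of 15 G2/M genes, 4 were lower and 0 higher (median -0.74), which were BIRC5 (-1.17, adjusted p = 0.0165), the mitotic kinase AURKA (-0.93, adjusted p = 0.0172), the cyclin CCNB1 (-0.80, adjusted p = 0.0227) and UBE2C (-0.71, adjusted p = 0.0491). Without replicate 4 all 15 S phase genes and 14 of the G2/M genes were lower, as were 12 of 17 CENP-A and kinetochore genes, 6 of 12 H3 chaperones (1 higher), 7 of 14 H2AX signalling genes (1 higher) and 6 of 18 H2A.Z exchange factors (1 higher), where 36.5% of all genes were called.

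With dox, the lists were mixed. Between NAA40-KD (+dox) and SCR (+dox), 4 of 18 H2A.Z exchange factors were lower and 0 higher (median -0.12), which were ZNHIT1 (-0.49, adjusted p = 0.00396), DMAP1 (-0.43, adjusted p = 0.00681) and RUVBL2 (-0.28, adjusted p = 0.0485), subunits of SRCAP-type complexes, and ING3 (-0.38, adjusted p = 0.0494). H3 chaperones split into 2 higher, NASP (0.30, adjusted p = 0.0185) and CHAF1B (0.32, adjusted p = 0.0399), and 2 lower, CABIN1 of the HIRA complex (-0.63, adjusted p = 0.000431) and ASF1B (-0.35, adjusted p = 0.0206). In the CENP-A list 2 of 17 were lower and 0 higher (median -0.01), RBBP7 (-0.23, adjusted p = 0.0409) and CENPW (-0.47, adjusted p = 0.042), and of the 8 linker and assembly partners 0 were called. In H2AX signalling 4 of 14 were higher, the kinases ATR (0.42, adjusted p = 0.00851) and ATM (0.49, adjusted p = 0.00931), SUPT16H (0.25, adjusted p = 0.0253) and MDC1 (0.29, adjusted p = 0.0288), and 1 was lower. S phase genes were also divided (4 higher, 2 lower), with MCM6 (-0.93, adjusted p = 1.79e-06) and RRM2 (-0.31, adjusted p = 0.0254) lower and MCM4 (0.32, adjusted p = 0.0203) and MCM5 (0.35, adjusted p = 0.0235) among the higher. Of 15 G2/M genes 6 were lower and 0 higher, led by BIRC5 (-0.94, adjusted p = 9.05e-06), UBE2C (-0.41, adjusted p = 0.00516), CDC20 (-0.38, adjusted p = 0.009) and CCNB1 (-0.29, adjusted p = 0.018). These counts stand beside 24.5% of all genes called.

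Within the NAA40-KD line, where the (-dox) libraries are again those of the first comparison, 11 of 15 S phase genes were higher in (+dox) and 0 lower (median 1.05), with 10.2% of all genes called. The most significant were MCM4 (1.49, adjusted p = 0.0012), GINS2 (1.65, adjusted p = 0.00134), MCM3 (1.49, adjusted p = 0.0015) and CDC6 (1.07, adjusted p = 0.00348). H3 chaperones had 4 of 12 higher and 1 lower, H2AX signalling 4 of 14 higher, the CENP-A list 3 of 17 higher, and H2A.Z exchange, linker partners and G2/M 1 each, higher. In the interaction 9 of 15 S phase genes were called, all higher, as were 4 of 12 H3 chaperones, 4 of 17 CENP-A genes, 5 of 14 H2AX signalling genes and 1 of 15 G2/M genes, and 0 in the lists of H2A.Z exchange and linker partners (9.22% of all genes called).

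**Figure D5:**
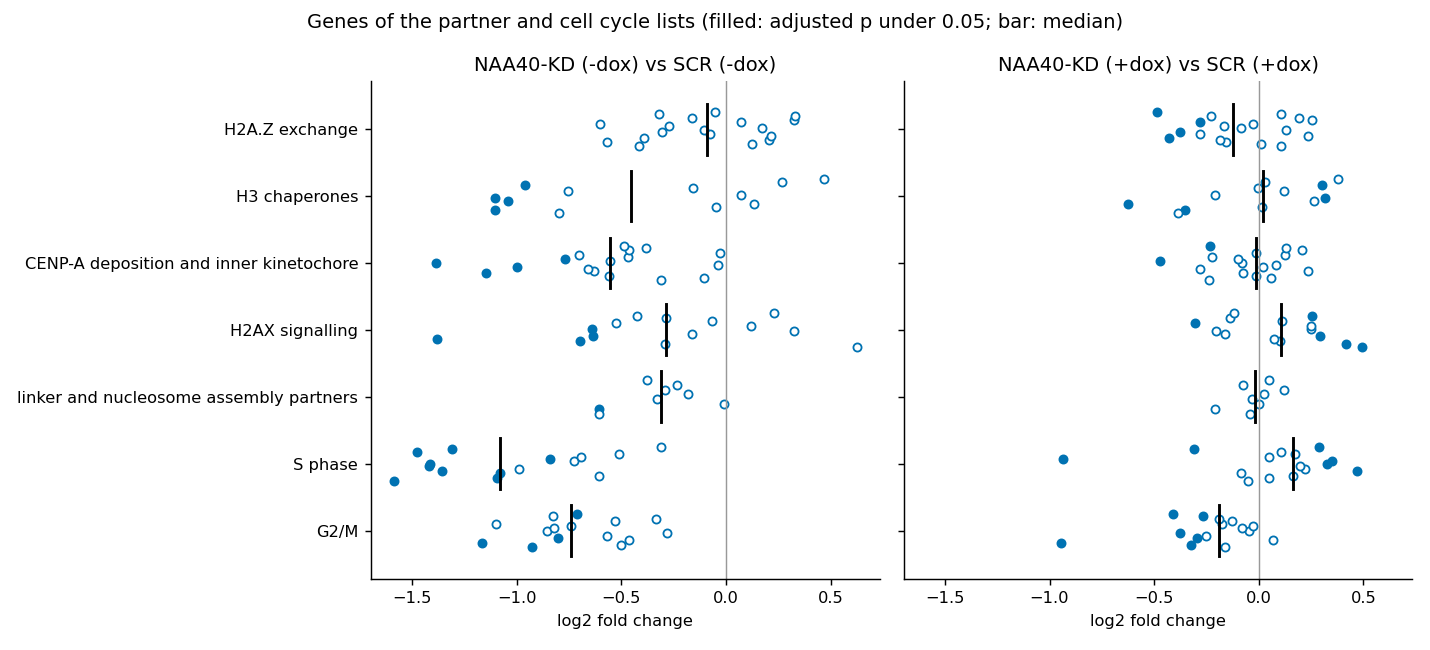
Log2 fold change of each gene in the lists of exchange factors, chaperones, signalling and cell cycle genes, for NAA40-KD (-dox) against SCR (-dox) and NAA40-KD (+dox) against SCR (+dox). Filled points have an adjusted p under 0.05 and bars are medians; S phase genes have a median of -1.08 in the first comparison and 0.16 in the second.

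Genes with profiles most like those of the called variants were listed by the root-mean-square difference of centred log2 levels over the 16 libraries, among genes of at least 20 CPM. For *H2AZ2* these were HMGB2 (0.08), a DNA-bending HMG-box protein, RTN4 (0.09) and TPX2 (0.09), a spindle assembly factor, where the median gene was at 0.38. For *H2AZ1* the closest was PHB1 (0.14), ahead of the chaperone gene ASF1B (0.16) and ARPC4 (0.17), with a median of 0.50. *H3-3B* was nearest to CYSTM1 (0.09), TOR1A (0.10) and TIMM22 (0.10), and *H1-10* to EDF1 (0.12), ASL (0.14) and GIPC1 (0.14). *H3-3A*, with its low counts, had no gene closer than CDK5RAP3 (0.26), NR2C1 (0.27) and TARBP1 (0.27). The closest genes depend on 1 library: without NAA40-KD (-dox) replicate 4 they were KIF4A (0.07), HSPA9 (0.07) and HMGB2 (0.07) for *H2AZ2*, C12orf75 (0.13), COMMD4 (0.14) and FABP5 (0.14) for *H2AZ1*, and FOXRED1, TARS1 and *H2AZ2* (0.08 each) for *H3-3B*. CDK5RAP3 and NR2C1 stayed among the 3 closest to *H3-3A*, and EDF1 and ASL among those to *H1-10*. All these profiles share the same libraries, and the distances are a description.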

How the data were processed

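Whole-number counts per gene, not normalized, were deposited by the authors, who per the labels used STAR, featureCounts and limma. The labels name both hg38 and GRCm38, and all 33937 identifiers were human Ensembl ones. Columns of counts matched to no sample numbered 0. Strand setting and annotation are not given in the sources used here.

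From the deposited counts, genes with CPM above 1 in at least 4 libraries were tested with edgeR 4.0.16 (R 4.3.3; TMM, robust quasi-likelihood F test, two-sided, Benjamini-Hochberg over all genes tested), each comparison on its own 8 libraries and the interaction on all 16. A call is an adjusted p under 0.05. SE is the size of the log2 fold change over the square root of F, and the SD is over 4 libraries. Alternatives were DESeq2 1.42.0, limma-voom 3.58.1, no filter, no TMM, all 16 libraries, a block for replicate number, leaving out libraries 1 at a time and, chosen after seeing the data, a GC offset (lowess, span 0.3), principal transcript length, and levels, lists, markers and profiles without NAA40-KD (-dox) replicate 4. Fits were tested on simulated data. Each library was counted as 1 replicate. Pairs of libraries within a group differed by more than sampling noise (chi-square over degrees of freedom 1.74 to 140, and at most 40.5 without NAA40-KD (-dox) replicate 4). This check cannot tell separate cultures from technical samples of 1 culture. Library totals of 11065606 to 13855486 make counting error small for members other than *H3-3A* (20 to 77 counts) and, to a lesser degree, *CENPA* (110 to 282 counts).

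The members, the gene lists and the design were chosen with earlier results of these data known. Named genes are all 9 members, *NAA40*, at most 4 called genes per list with the lowest adjusted p in the comparisons of NAA40-KD with SCR, the 3 most similar profiles of each member called in a pairwise comparison, and overlapping genes and pseudogenes; the rule also covers the other comparisons, where only S phase genes are named, and 1 gene that is not reported here. Positions are from GENCODE 29 (33811 identifiers matched), promoters from RefSeq (all 9 members matched), whose starts can differ from GENCODE's. Markers were listed by hand.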

Additional observations from a re-analysis of the deposited data

Results flagged for a closer look

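In groups of 4 libraries, a library was listed here where its gap to the nearest other exceeded the 95% critical value of Dixon's ratio for 4 values, which chance alone gives in about 1 in 20 groups. Of 52 groups tested, 4 were listed. *H2AX* was at 109.6 CPM in NAA40-KD (-dox) replicate 4, with the other 3 libraries at 34.5 to 42.7, and *H1-10* was at 75.7 CPM in the same library, with the others at 30.1 to 32.7. *MACROH2A2* was at 43.8 CPM in SCR (+dox) replicate 2, against 49.0 to 49.3 in the others. *CENPA* was at 14.1 CPM in NAA40-KD (+dox) replicate 2, against 15.96 to 16.2. Beyond single libraries, the difference between NAA40-KD and SCR changed with the dox label by the interaction test for *H2AZ2* (0.49 on the log2 scale) and *NAA40* (1.46).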

How the results depend on the processing

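Replicate numbers were not used to pair the samples. Correlations of same-numbered libraries' deviations were -0.42 to 0.14 for NAA40-KD (-dox) against SCR (-dox) and -0.04 to 0.19 for NAA40-KD (+dox) against SCR (+dox). They were 0.04 to 0.24 within NAA40-KD and -0.28 to 0.02 within SCR. Replicate 4 of NAA40-KD (-dox) enters the mean from which its group's deviations were taken, so correlations with that group cannot exclude pairing. With the replicate block, 0 members were called in the first comparison and 2 in the interaction (*H2AX* gained, adjusted p = 0.0459), and the counts of the other 3 comparisons changed by less than 1.5 times. Within NAA40-KD the count of 1 stayed, but *H2AZ2* was lost (adjusted p = 0.0788) and *H2AX* gained (adjusted p = 0.0432). In NAA40-KD (-dox) against SCR (-dox), 2 members were called in the report, 5 by DESeq2, 5 in the fit over all 16 libraries, 6 with the GC offset, 5 with the replicate block and GC offset, 4 without TMM, and 0 to 7 when a library was left out. In NAA40-KD (+dox) against SCR (+dox), 4 became 0 over all 16 libraries and 1 to 4 when a library was left out. Within NAA40-KD, 1 became 5 by DESeq2, 2 by limma-voom, 5 over all 16 libraries, 4 with the GC offset, 5 with block and GC offset, and 0 to 7 when a library was left out. In the interaction, 1 became 0 without the filter and 0 to 3 when a library was left out. For most of these alternatives the share of all genes called is not given here, so the moves cannot be read as particular to these genes. The cause of these moves was not tested.

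Signs reversed for small differences. In NAA40-KD (-dox) against SCR (-dox), *H1-10* was -0.15 with the GC offset, -0.14 with block and GC offset, and -0.28 to 0.35 when a library was left out, and *MACROH2A2* -0.24 to 0.027 when one was left out. In NAA40-KD (+dox) against SCR (+dox), *H2AX* was 0.0038 by limma-voom, 0.0019 with the replicate block, 0.037 with the GC offset, 0.038 with both, 0.0031 without TMM, and -0.11 to 0.088 with a library left out. Within NAA40-KD, *H3-3A* was -0.00033 and -0.0037, and *MACROH2A1* -0.051 and -0.012, with the GC offset and with block and GC offset, and *MACROH2A2* -0.045 to 0.20 with a library left out. Within SCR, leaving out a library gave -0.058 to 0.18 for *H2AX* and -0.10 to 0.070 for *CENPA*. In the interaction, *H3-3A* was 0.019 without the filter, 0.00956 with the replicate block, 0.0071 without TMM and -0.29 to 0.19 with a library left out; *MACROH2A1* was -0.053 with the GC offset and -0.026 with block and GC offset; *MACROH2A2* was 0.022 by limma-voom, 0.030 without the filter, 0.013 with the replicate block, 0.115 with the GC offset, 0.118 with both, 0.035 without TMM and -0.080 to 0.16 with a library left out.

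Shares per kilobase follow the lengths used. In the order SCR (-dox), SCR (+dox), NAA40-KD (-dox), NAA40-KD (+dox), *H2AZ1* was 77.9, 79.2, 76.1 and 76.9% per kb of exon and 56.9, 58.7, 54.4 and 55.4% per kb of principal transcript, *H3-3A* 0.712, 0.756, 1.63 and 1.44%, and 0.755, 0.801, 1.73 and 1.53%, and *MACROH2A1* 34.8, 33.9, 33.0 and 33.8%, and 77.2, 76.5, 75.7 and 76.4%. Without NAA40-KD (-dox) replicate 4, the called genes in the lists for H2A.Z exchange, H3 chaperones, CENP-A, H2AX signalling, linker partners, S phase and G2/M numbered 7, 7, 12, 8, 4, 15 and 14 against SCR (-dox), where 36.5% of all genes were called. Within NAA40-KD, where 52.4% of all genes were called, they were 14 for H2A.Z exchange (9 higher, 5 lower), 10 for H3 chaperones (5 and 5), 10 for H2AX signalling (7 and 3) and, all higher, 14 for CENP-A, 6 for linker partners and 13 for G2/M. In the interaction (24.2% of all genes) they were 5 for H2A.Z exchange (3 higher, 2 lower) and, all higher, 8 for CENP-A, 2 for linker partners, 14 for S phase and 8 for G2/M. Of 972 values recomputed under an alternative, 728 kept their direction and their side of the threshold (or moved by less than the spread or 1.5 times), 53 came to pass the test, 54 ceased to, 52 changed sign and 85 counts or shares moved further. Counts of 20 to 77 limit *H3-3A*, whose shared sequence no alternative addresses.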

Other observations

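Canonical, replication-dependent histone genes were counted in the same way. Of 44 coding genes listed, 11 passed the filter on low counts. In NAA40-KD (-dox) against SCR (-dox), 3 of these 11 were higher and 0 lower, with a median log2 fold change of 0.88 (6.42% of all genes called), and without NAA40-KD (-dox) replicate 4 7 were higher and 0 lower, with a median of 0.68 (36.5% called, 17.1% higher). NAA40-KD (+dox) against SCR (+dox) gave 1 higher and 4 lower (median -0.02; 24.5% called), and NAA40-KD (+dox) against NAA40-KD (-dox), which shares the latter libraries, gave 0 higher and 5 lower (median -0.90; 10.2% called), or 8 lower without that replicate (median -0.76; 52.4% called). Between the SCR groups 0 were called (median 0.11). Most messages of these genes end in a stem-loop without a poly(A) tail, so a library made from poly(A) RNA holds few of them, and the counts describe the part that was captured. Genes that passed did so partly through the group in which they are high, and the count over them is no test of the family.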
